A study of Capra hircus with 18 samples.

Results

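Genes that build, move or anchor the cytoskeleton, or that lay down the matrix outside the cell, were described in the blood of transported goats. A gene was taken when its description in either table of listed genes contained integrin, actin, myosin, tubulin, kinesin, dynein, cadherin, collagen or laminin as a whole word and did not contain kinase, GTPase or ATPase. This gave 34 of the 1557 genes of both tables (2.18%), all protein coding. Of these, 14 were among the 430 genes listed at 30 min, 24 were among the 1247 listed at 180 min, and 4 were in both. No listed gene was described as a laminin, and 120 and 312 listed genes had no description and could not be considered.

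Blood RNA of 18 uncastrated male Spanish goats, 8 months old, was sequenced with 1 library per goat. The control group (7 goats) was held in pens, the 30 min group (4 goats) was driven about 50 km and the 180 min group (7 goats) about 200 km, and blood for RNA was drawn after transport. Whole blood was studied, so fewer cells of a type and less RNA per cell cannot be told apart. Effective library sizes were 10443023 to 39473244 in the control group, 13992574 to 22855051 in the 30 min group and 11290309 to 34125715 in the 180 min group.

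Actin filaments carry myosin motors, which pull on membranes and on other filaments when leukocytes crawl, change shape and take up particles. Microtubules are built from alpha and beta tubulin and carry kinesin and dynein motors. Integrins and cadherins are surface receptors that hold cells to matrix and to each other, and collagens are the main fibrous proteins of connective tissue. Circulating leukocytes are known for strong expression of actin regulators and unconventional myosins, whereas collagens, muscle myosins and ciliary dyneins are best known from other tissues.

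Levels are given as normalized counts, which are reads divided by a size factor for each goat, and are compared between groups only within a gene. A gene was well counted when its mean over the goats of a table was at least 50. By this measure 18 of the 34 genes were well counted in a table and 16 were low in every table in which they were listed. The genes next to this limit were *MYO19* (mean 36.9) and *KIF17* (59.9) at 30 min, and *CDH5* (25.7) and *MYH11* (50.1) at 180 min. Differences are transported minus control in mean log2(normalized count + 1), with their standard error (SE). A gene is said to have risen or fallen where limma gave an unadjusted p under 0.05. The tables hold only genes that already differed between the same goats at an unadjusted p under 0.05, so these tests and the single-gene p-values below, from an exact two-sided permutation test over goats, describe the spread between goats and are not independent evidence of a change.

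The question of the 180 min comparison was which of these genes differed after the longer journey. In the deposited scaling the myosins *MYO1F* and *MYO9B* and the actin-remodelling *FLII* were higher, and the actin-capping *CAPG* did not pass. Beta tubulin III, the tubulin folding cofactor *TBCA*, the kinesin genes and the integrin *ITGA10* were lower. Of the 24 genes, 8 rose and 7 fell, which is 62.5% of them against 62.4% of all genes listed at 180 min. Among all listed genes 36.8% rose and 25.6% fell. With limma p-values adjusted over the whole table, 4 of the 24 passed (*TUBB3*, *CDH5*, *DNAH17* and *CDHR1*), against 23.7% of all listed genes. In none of the 24 were the goats of both groups fully apart, a pattern met by 3.05% of the listed genes. By the exact permutation test 16 of the 24 had an unadjusted p under 0.05, against 64.0% of all listed genes. The median difference was -0.49 over the 24 genes and 0.68 over all listed genes. Over the 16 well-counted ones it was 0.57, against 0.74 over the well-counted listed genes. For low-count genes it was -1.36 both in the group and among the listed genes. The split of 8 higher and 7 lower depended on the scaling. It was 9 and 8 in edgeR with the deposited size factors, 8 and 6 with effective library sizes and 8 and 8 by the permutation test. Where the listed genes set the scaling, it was 3 and 9 after centring each goat on its median over the listed genes. It was 1 and 12 in edgeR with TMM factors of the listed genes, and 2 and 13 in DESeq2. All listed genes at 180 min moved the same way, from 459 higher and 319 lower to 311 and 426, 245 and 480, and 292 and 500 in these settings. Of the 8 that rose, *MYBPH* alone passed in edgeR with TMM, and *MYBPH* and *DNAH17* passed in DESeq2. The differences of *MYO1F*, *MYO9B* and *FLII* were 0.50, 0.11 and 0.15 in edgeR with TMM and 0.59, 0.18 and 0.20 in DESeq2.

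**Figure D1:**
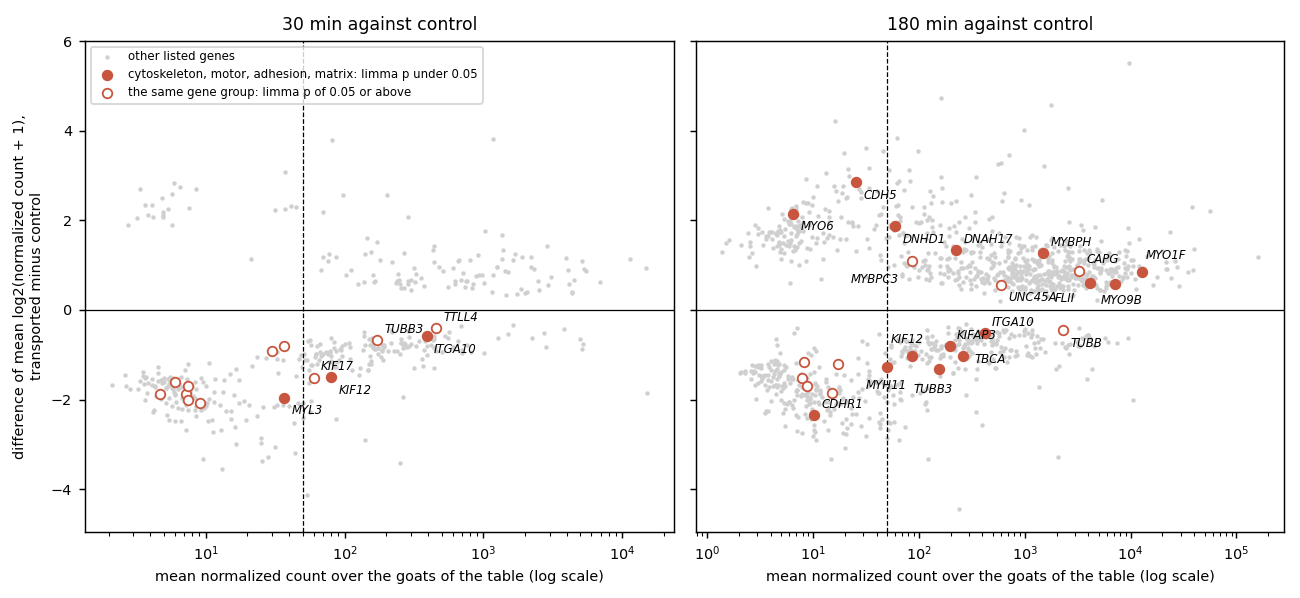
Difference between transported and control goats (vertical axis, log2 scale) against the mean normalized count over the goats of the table (horizontal axis, log scale), for all listed genes (grey) and the cytoskeleton, motor, adhesion and matrix genes (red, filled where the limma p was under 0.05), with the dashed line at a mean of 50. All 14 genes of the group lie below 0 at 30 min, whereas 11 lie above and 13 below 0 at 180 min.

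Among the actin motors, *MYO1F* (chr7:93268775-93304226, plus strand), a class I myosin of immune cells, had the highest level at 180 min. Its normalized count was 5882 at the lowest, 7907 at the median and 11933 at the highest in the control group, against 8810, 12093 and 46728 in the 180 min group. In 4 of the 7 transported goats it was above every control goat, and the value of 46728 was that of goat 10, which held 26.0% of the gene's total. The means were 8341 ± 2499 (SD, n = 7) and 17293 ± 13401 (SD, n = 7), and *MYO1F* rose by 0.86 (SE 0.36, exact permutation p = 0.0134). Without goat 10 the difference was 0.58 (exact permutation p = 0.0256), and without the 3 goats with the smallest effective library sizes (control goats 6 and 8 and goat 10) it was 0.51 (p = 0.0801 in the same permutation test).

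*MYO9B* (chr7:102814942-102904668, plus strand) encodes a class IX myosin. Its lowest, median and highest values were 4344, 5408 and 6969 in the control group and 5607, 8751 and 11971 in the 180 min group. Here 5 of 7 transported goats exceeded all controls, and no single goat dominated. *MYO9B* rose by 0.59 (SE 0.23, exact permutation p = 0.00699). The low-count *MYO6*, the myosin that walks towards the minus end of actin, had 0 reads in 4 control goats and 1 to 16 in the other controls. At 180 min it had 0 reads in goat 10 and 3 to 23 in the other 6 goats. It rose by 2.15 (SE 0.75, exact permutation p = 0.0268), with 5 of 7 transported goats above all controls.

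Of the actin-binding genes, *FLII* (chr19:34048285-34059989, plus strand), an actin-remodelling protein of the gelsolin family, had values of 2270, 3228 and 4855 in controls (lowest, median, highest) and 2939, 5280 and 6291 after 180 min. Goat 10 was the lowest of the transported goats, and 4 of 7 were above all controls. *FLII* rose by 0.61 (SE 0.25, exact permutation p = 0.0157), and without goat 10 the difference was 0.74 (exact permutation p = 0.00408). *CAPG* (chr11:49108381-49126514, plus strand), which caps the growing ends of actin filaments, ranged from 738 to 3443 in controls and from 972 to 19897 after 180 min. The highest value was that of goat 10, with 43.2% of all normalized counts of the gene, and the other 6 transported goats lay between 972 and 4029. The difference of 0.88 (SE 0.59, exact permutation p = 0.188) did not pass the test, and it was 0.41 (exact permutation p = 0.374) without that goat.

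The muscle-type myosin genes did not share a direction. *MYBPH* (chr16:335054-342440, minus strand), a myosin-binding protein first known from skeletal muscle, had 238, 859 and 1756 in controls and 856, 1410 and 6079 in the 180 min group (lowest, median, highest). Goats 10 and 11 alone lay above the control range. *MYBPH* rose by 1.27 (SE 0.54, exact permutation p = 0.046), and the permutation p passed 0.05 when any 1 of 9 goats was left out, up to 0.0909 without goat 10 (difference 0.96). *MYBPC3* (chr15:5789433-5978212, plus strand), its cardiac relative, was at 14.8 to 114 in controls and at 31.2 to 86.4 in 6 transported goats, and goat 10 reached 575. Its difference was 1.09 (SE 0.64, exact permutation p = 0.129) with goat 10 and 0.59 (exact permutation p = 0.257) without it. *UNC45A* (chr21:21001790-21015926, minus strand), a chaperone that folds myosin heads, ranged from 307 to 546 in controls and from 426 to 1889 after 180 min, the highest value again in goat 10. It differed by 0.55 (SE 0.32, exact permutation p = 0.0565) and did not pass, and its difference was smaller without goat 10.

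*MYH11* (chr25:13980293-14091766, minus strand), the heavy chain of smooth muscle myosin, moved the other way. Controls ranged from 33.0 to 125 with a median of 48.4, and the 180 min group from 5.34 to 57.4 with a median of 32.4. Goats 10 and 16 had the lowest values, and 4 transported goats were below all controls. *MYH11* fell by 1.27 on the log2 scale (SE 0.53, exact permutation p = 0.0379), and the permutation p passed 0.05 when any 1 of 6 goats was left out (goats 10 and 16 and control goats 3, 4, 8 and 9), with a difference of -0.94 without goat 10.

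**Figure D2:**
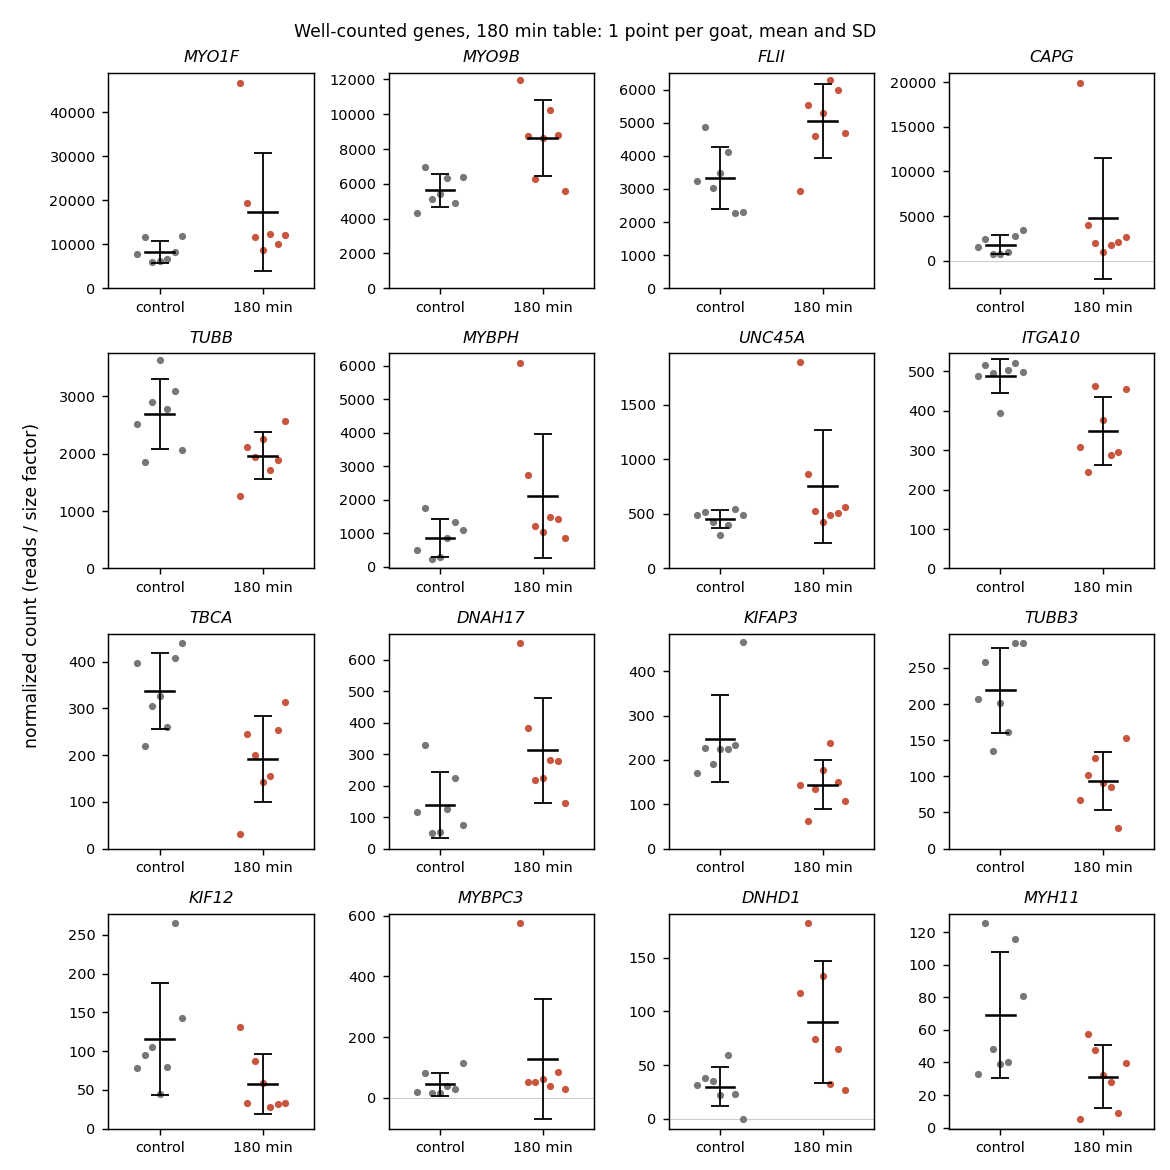
Normalized count (vertical axis, reads divided by the size factor) of the 16 well-counted genes in each goat of the control (grey) and 180 min (red) groups, with 1 point per goat and the mean and SD drawn in black. The highest point of MYO1F, MYO9B, CAPG, MYBPH, UNC45A, DNAH17 and MYBPC3 is goat 10, and the groups overlap in every panel.

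Of the tubulin genes, *TUBB3* and *TBCA* fell after 180 min and *TUBB* did not pass. *TUBB3* (chr18:16108489-16117099, plus strand), beta tubulin class III, best known from neurons, had 135, 207 and 285 in controls and 28.8, 91.2 and 153 in the 180 min group (lowest, median, highest). In 6 of 7 transported goats it was below every control goat, and goat 17, the highest of the transported goats, overlapped with the lowest control. *TUBB3* fell by 1.32 on the log2 scale (SE 0.34, exact permutation p = 0.00117, limma adjusted p = 0.0335 over the table), a 2.35-fold lower mean. The ubiquitous *TUBB* (chr23:21688860-21692111, plus strand) ranged from 1859 to 3629 in controls and from 1265 to 2567 in transported goats. Its difference was -0.45 (SE 0.23), with an exact permutation p of 0.0268 and a limma p of 0.0711, so it did not pass the limma test. Without goat 10 the permutation p was 0.0519. Beta tubulin genes are close copies of each other, and the handling of reads that fit several places was not stated, so the reads given to *TUBB* and *TUBB3* are uncertain.

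*TBCA* (chr10:92316672-92401287, plus strand), a cofactor that holds newly folded beta tubulin, had 220, 326 and 440 in controls and 30.2, 201 and 313 after 180 min. Goat 10 was far below the other transported goats, the next of which had 141. *TBCA* fell by 1.03 on the log2 scale (SE 0.44, exact permutation p = 0.00932). The difference was -0.64 without goat 10 (exact permutation p = 0.0169) and -0.58 without the 3 goats of small library size (p = 0.0563 in the same permutation test).

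Both kinesin genes at 180 min fell. *KIFAP3* (chr16:36108339-36233943, minus strand), the non-motor subunit of kinesin-2, ranged from 170 to 465 in controls (median 226) and from 62.1 to 237 in the 180 min group (median 142). The value of 465 belonged to control goat 9 alone, the other controls lying between 170 and 234. Of the transported goats 5 were below all controls, and *KIFAP3* fell by 0.80 on the log2 scale (SE 0.31, exact permutation p = 0.00874). *KIF12* (chr8:103038799-103046153, minus strand), a kinesin known from kidney epithelium, had 44.4, 95.4 and 265 in controls and 28.2, 33.6 and 132 in transported goats. The highest transported value was in goat 10. *KIF12* fell by 1.02 on the log2 scale (SE 0.43, exact permutation p = 0.042), and the permutation p passed 0.05 when any 1 of 8 goats was left out (goats 11, 15, 16 and 17 and control goats 3, 4, 8 and 9).

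The dynein heavy chain genes went opposite to the kinesins. *DNAH17* (chr19:52897938-52994842, plus strand), an axonemal dynein heavy chain known from sperm tails, had 49.4, 115 and 330 in controls and 144, 280 and 653 in the 180 min group (lowest, median, highest). Goats 10 and 11 were above the control range, and control goats 3 and 8 were inside the transported range. *DNAH17* rose by 1.34 (SE 0.46, exact permutation p = 0.0175, limma adjusted p = 0.0491 over the table). *DNHD1* (chr15:35791008-35854752, plus strand), a related heavy chain of sperm tails, was at 0 in control goat 9 and at 22.2 to 59.5 in the other controls, against 27 to 182 in transported goats. Here 5 of 7 transported goats exceeded all controls. *DNHD1* rose by 1.86 (SE 0.79, exact permutation p = 0.0175), and its difference was smaller without control goat 9. Per gene length both were low, at 1.15 ± 0.628 and 0.309 ± 0.200 FPKM (SD, n = 7) in the 180 min group, against 248 ± 194 FPKM for *MYO1F*.

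*ITGA10* (chr3:99059176-99082321, minus strand) was the integrin of the group, a collagen-binding alpha chain that pairs with beta 1. Controls lay between 394 and 522 (median 498) and the 180 min group between 245 and 464 (median 310). Goats 13 and 17 reached the control range through its lowest member, control goat 6, and 5 of 7 transported goats were below all controls. *ITGA10* fell by 0.52 on the log2 scale (SE 0.21, exact permutation p = 0.00524).

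On the scale of FPKM, which divides by gene length, the control levels at 180 min were ordered *MYO1F* (116 ± 41.9, SD, n = 7), *TUBB* (95.2 ± 17.6), *CAPG* (65.3 ± 41.6), *TBCA* (49.4 ± 14.3), *FLII* (40.2 ± 11.4), *MYO9B* (29.5 ± 5.83) and *MYBPH* (27.9 ± 19.0). Each neighbouring pair in this order lay within the sum of its SDs. The other well-counted genes were at 7.69 FPKM or below, among them *ITGA10* at 2.35 ± 0.305.

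Marker genes of blood cells moved in the same goats. Their counts stand beside 36.8% of all genes listed at 180 min that rose and 25.6% that fell, in the deposited scaling. Of 27 neutrophil markers 11 were listed at 180 min and 10 rose, and their summed normalized count was 77399 to 275165 in the 180 min group against 24791 to 100233 in controls, with goat 10 at 275165. Of 21 T cell markers 7 were listed and 6 fell, with sums of 4583 to 9784 against 8663 to 16912. Of 12 monocyte markers 3 were listed and all 3 rose. Of 13 platelet markers 3 were listed and 2 rose, with a summed normalized count of 20169 in goat 10, 506 to 3052 in the other 6 transported goats and 159 to 3269 in controls. B cell, natural killer and red cell lists had 1 listed gene each (*MS4A1* and *SPTB* fell and *NKG7* rose), the eosinophil list had *ADGRE1*, which rose, and of 13 epithelial markers 3 were listed (2 fell and 1 rose). No skeletal muscle marker of 14 was listed. Genes that did not differ are absent from the tables, so their levels were not analysed here. The part of cell composition in the changes of *MYO1F*, *TUBB3* and the other genes was not tested.

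Genes of the same pathways outside the chosen group were also counted at 180 min, where 36.8% of all listed genes rose and 25.6% fell in the deposited scaling. Of 79 actin regulators 7 were listed, 1 of them in the chosen group, and 2 of the other 6 rose, *LIMK2*, which phosphorylates cofilin (447 ± 124 against 236 ± 83.0 in controls, SD, n = 7), and *HCLS1*, the leukocyte relative of cortactin (6953 ± 1564 against 4755 ± 831). Among the integrin adaptors and signalling genes, the Src family kinase *FGR* and the focal adhesion protein *ZYX* rose. Of 31 leukocyte adhesion genes 5 were listed, of which *SELP*, *ADGRE5* and *CD44* rose and *CD6* and *EPCAM* fell. Of 75 genes of matrix proteins and matrix enzymes outside the group 8 were listed and 6 rose. They included *MMP25*, a membrane-bound protease of neutrophils (difference 1.37, SE 0.35), and *HSPG2*, the basement membrane proteoglycan perlecan (1.64, SE 0.48). Of 90 microtubule and cilium genes 4 were listed, of which *NUMA1* rose and *IQCG* and *IFT122*, both of cilia, fell. P-selectin, encoded by *SELP*, is also a platelet protein, and its normalized count was 36.6 ± 41.4 against 4.88 ± 4.87.

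In 4 of the 8 low-count genes at 180 min, 1 goat held more than 50% of the normalized counts, as in 169 of the 400 listed genes with a mean under 50. *CDH5*, the cadherin of endothelial junctions (chr18:35395229-35433654, plus strand), had 0 reads in 3 control goats and 1 to 31 in the other 4, against 7 to 111 in the 180 min group. Goat 10 held 54.8% of its normalized counts, and 3 of 7 transported goats were above all controls. *CDH5* rose by 2.85 (SE 0.94, exact permutation p = 0.0163), or by 2.33 without goat 10 (exact permutation p = 0.0338). Of the 21 connective tissue and vessel wall markers, 4 belong to the chosen group, and the 2 others listed, *VWF* and *DCN*, did not pass the test. These genes differed in opposite directions, *VWF* by 1.19 (SE 0.62) and *DCN* by -1.92 (SE 0.999). The mean of *VWF* was 1031 after 180 min and 353 in controls, and that of *DCN* was 0.417 and 15.2. Their summed normalized count is therefore almost wholly that of *VWF* and does not show the lower *DCN*. The sum was 3996 in goat 10, 265 to 1203 in the other 6 transported goats and 159 to 815 in controls. *CDHR1*, a cadherin-related gene known from photoreceptors, had 0 reads in 1 control goat and 3 to 39 in the others, and 0 reads in 3 transported goats and 1 to 8 in the others. *CDHR1* fell by 2.35 on the log2 scale (SE 0.80, exact permutation p = 0.0181), and without the 3 goats of small library size its difference was -1.83 (exact permutation p = 0.0909).

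The 4 collagen genes were listed at 180 min only, and none passed. *COL1A2*, a chain of the fibrillar collagen type I, had 69, 77 and 17 reads in control goats 6, 7 and 8, 1 read in control goat 1 and 0 in the other controls, and between 0 and 4 reads in every transported goat. Its difference was -1.86 (SE 1.13, exact permutation p = 0.176), and it was -0.36 without the 3 goats of small library size, 2 of which were control goats 6 and 8. *COL1A1*, the partner chain, was read mostly in the same animals, with 83, 76 and 9 reads in control goats 6, 7 and 8 and at most 11 in a transported goat. The difference of *COL1A1* was -1.20 (SE 1.16, exact permutation p = 0.369) and turned to 0.26 without the 3 goats of small library size. *COL6A1*, a chain of microfibrillar collagen, followed with 20, 32 and 25 reads in these 3 control goats and at most 3 in a transported goat. *COL8A2*, of the collagen of vessel walls and the cornea, was instead highest in control goat 9, with 71 reads and 56.7% of its normalized counts. *JCAD*, the endothelial junction gene of both tables, had 0 reads in 3 transported goats and 3 to 12 in the others, against 0 in control goat 9 and 2 to 32 in the other controls, and its difference of -1.70 (SE 0.82, exact permutation p = 0.081) did not pass. The collagens *COL1A1* and *COL6A1* fall outside the naming rule and were named after their values were seen.

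**Figure D3:**
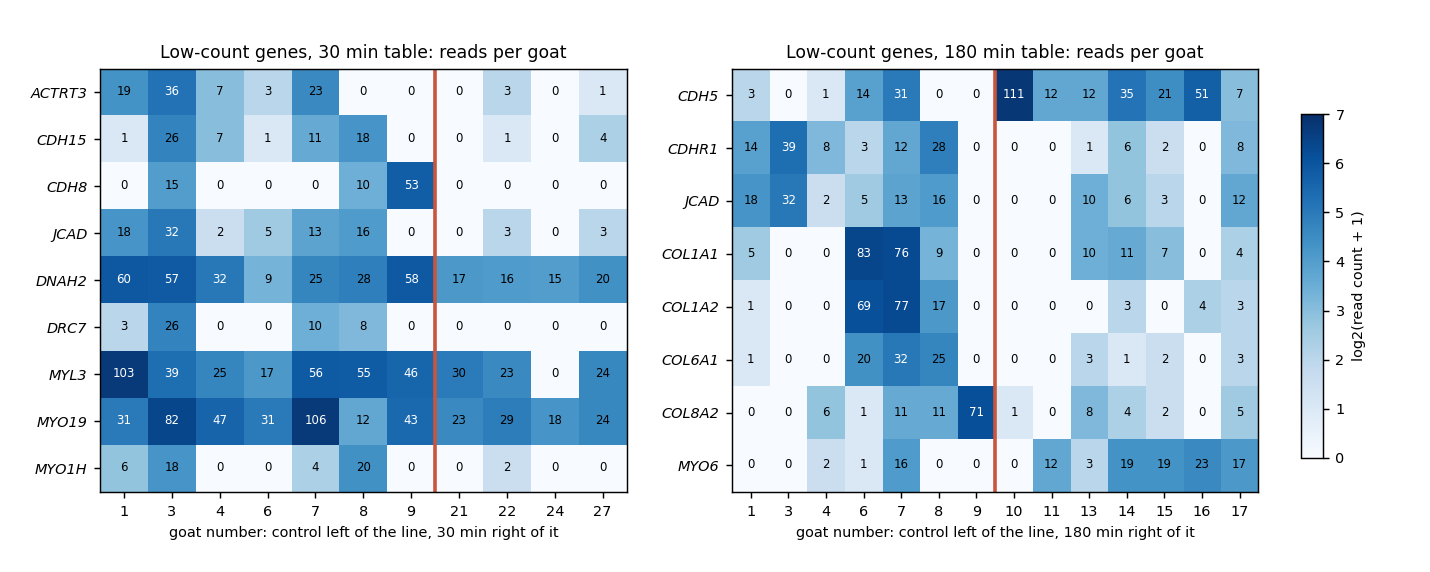
Reads in each goat (horizontal axis, goat number) for the low-count genes of the 30 min table (left) and the 180 min table (right), with shading by log2(read count + 1) and the red line between control and transported goats. The type I and VI collagens are read mainly in control goats 6, 7 and 8, and CDH5 reaches its highest count, 111 reads, in goat 10.

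The 30 min comparison asked the same of the shorter journey. All 14 genes listed at 30 min had a difference below 0, as did 303 of the 430 listed genes. The kinesin *KIF12*, the integrin *ITGA10* and the muscle light chain *MYL3* fell, no gene of the group rose, and 11 did not pass. The 3 that passed are 21.4% of the 14, against 46.0% of all genes listed at 30 min (24.4% fell and 21.6% rose). No gene passed with p-values adjusted over the table, against 2.09% of the listed genes, and by the exact permutation test 5 of the 14 had an unadjusted p under 0.05, against 46.7%. The goats of both groups overlapped in all 14, whereas 8.14% of the listed genes showed no overlap. The median difference was -1.56 for the 14 genes and -0.92 for all listed genes. For well-counted genes alone it was -0.68 in the group and -0.65 among the listed genes, and for low-count genes -1.87 and -1.74. The median over the listed genes was itself lower by 0.69 (log2) in transported goats, so centring each goat on that median raises every difference by that amount. After it none of the 14 passed, 9 of the 430 listed genes were lower and 126 higher, and *ITGA10* (0.10), *TTLL4* (0.29) and *TUBB3* (0.011), whose differences were smaller than the shift, lay above 0.

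*ITGA10* had normalized counts of 304, 421, 198 and 280 in goats 21, 22, 24 and 27, against 326 to 504 in controls (median 453). Only goat 22 was inside the control range, and 3 of 4 transported goats were below it. *ITGA10* fell by 0.59 on the log2 scale (SE 0.26, exact permutation p = 0.00909) in the deposited scaling. *KIF12* had 18.3, 44.7, 25.7 and 45.1 in the same goats, against 36.8 to 256 in controls (median 87.7). Goats 21 and 24 were below all controls, and the control range was stretched by goat 8, at 256. *KIF12* fell by 1.51 on the log2 scale (SE 0.48, exact permutation p = 0.0212), a 3.19-fold lower mean, and the permutation p was 0.0583 without goat 21 and 0.05 without goat 24.

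*TTLL4* (chr2:29097131-29113476, minus strand), an enzyme that adds glutamate chains to tubulin and other proteins, had 341, 353, 358 and 465 in goats 21, 22, 24 and 27, against 410 to 593 in controls (median 490). Goat 27 alone was inside the control range. The difference was -0.41 (SE 0.21), with an exact permutation p of 0.00606 and a limma p of 0.0833, so it did not pass the limma test. *TUBB3* had 114, 169, 95.3 and 107 against 113 to 275 in controls (median 192), with goats 24 and 27 below all controls. Its difference was -0.68 (SE 0.32, exact permutation p = 0.0485, limma p = 0.0561), and it did not pass the limma test either. *KIF17* (chr2:3997558-4046105, minus strand), a kinesin-2 motor known from neurons and cilia, had 1.66, 39.1, 27.04 and 16.5 against 15.9 to 307 in controls (median 23.2). Control goats 8 and 9, at 157 and 307, stood apart from the other 5 controls, which lay between 15.9 and 32.5. The difference of -1.51 (SE 0.97, exact permutation p = 0.224) did not pass, and it was smaller in size without goat 21, at 1.66.

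**Figure D4:**
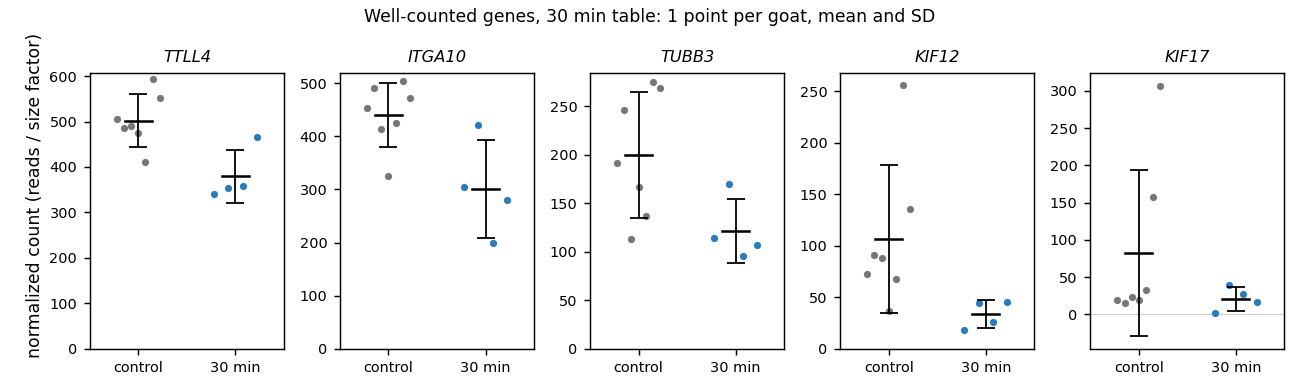
Normalized count (vertical axis, reads divided by the size factor) of the 5 well-counted genes in each goat of the control (grey) and 30 min (blue) groups, with 1 point per goat and the mean and SD drawn in black. For ITGA10 and TTLL4, 3 of the 4 transported goats lie below every control goat, and for KIF17 control goats 8 and 9 lie far above all others.

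Of the 9 low-count genes at 30 min 1 passed (11.1%), against 41.8% of the 177 listed genes with a mean under 50 (21 higher and 53 lower). *MYL3* (chr22:52669685-52674906, plus strand), the light chain of slow and ventricular muscle myosin, had 24.9, 18.4, 0 and 26.4 in goats 21, 22, 24 and 27 against 21.5 to 104 in controls. The 0 was in goat 24, and goat 22 was also below all controls. *MYL3* fell by 1.97 on the log2 scale (SE 0.86, exact permutation p = 0.0212), and without goat 24 its difference was -0.82 (exact permutation p = 0.117). The mitochondrial myosin gene *MYO19* had 19.1, 23.2, 23.2 and 26.4 against 21.6 to 93.3 in controls, a difference of -0.79 (SE 0.38, exact permutation p = 0.0636). The axonemal dynein *DNAH2* had 14.1, 12.8, 19.3 and 21.99 against 11.9 to 64.8, a difference of -0.91 (SE 0.49, exact permutation p = 0.106). In both the transported goats lay close together at the low end of a wide control range.

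The 6 other low-count genes at 30 min had almost no reads in transported goats. *CDH8*, a neuronal cadherin, had 0 reads in all 4 transported goats and in 4 of 7 controls, and 15, 10 and 53 reads in control goats 3, 8 and 9. Its control mean of 11.8 ± 17.6 (SD, n = 7) was at least 3.93-fold higher than the floor of 3 counts per library (exact permutation p = 0.236). Control goat 9 held 56.5% of the gene's normalized counts, and the bound was lower without that goat. *MYO1H*, a class I myosin, had 2 reads in goat 22 and 0 in the other 3 transported goats, and *JCAD*, a protein of endothelial junctions, had 3 reads each in goats 22 and 27. The cadherin *CDH15*, the actin-like *ACTRT3* and the dynein regulator *DRC7*, named here after their values were seen, had 5, 4 and 0 reads in all 4 transported goats together. None of these 6 passed. In each of the 9 low-count genes the highest normalized count was that of a control goat, as it was in 6 of the 8 low-count genes at 180 min. This largely follows from the listing, since all 9 and 6 of the 8 had a difference below 0. Of all listed low-count genes, 153 of 177 at 30 min and 243 of 400 at 180 min did so too. How often a control goat was highest among those was not counted.

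Of the same pathways outside the group, few genes were listed at 30 min, where 21.6% of all listed genes rose and 24.4% fell. The integrin adaptor *PARVB* (1 listed of 45), the adhesion molecule *ICAM1* and the hyaluronidase *HYAL2* (1 of 75 matrix genes) rose. The single listed actin regulator, *MARCKS*, and the single listed microtubule gene, *IQCG*, did not pass. *ICAM1*, the endothelial and leukocyte ligand of beta 2 integrins, was at 220 ± 67.7 (SD, n = 4) against 93.6 ± 32.3 (SD, n = 7), a difference of 1.24 (SE 0.32). Of the marker lists, 1 neutrophil gene (*VNN1*) rose, 1 epithelial gene (*JUP*) fell, the single natural killer gene (*NCR3*) did not pass, and 5 of 17 B cell genes were listed, with none passing and summed counts of 8570 to 12061 against 8975 to 28768 in controls.

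*ITGA10*, *TUBB3*, *KIF12* and *JCAD* were listed in both tables, which share the same 7 control goats, so the lower values in both are not separate observations. For a comparison of the journeys with each other, reads were scaled to the mean effective library size. The genes were not chosen by this contrast itself. Their listing in both tables required both transported groups to differ from the same controls, so the comparison is not free of that choice. *ITGA10* was then at 509 ± 66.1 in controls (SD, n = 7), 359 ± 109 after 30 min (SD, n = 4) and 376 ± 107 after 180 min (SD, n = 7). *TUBB3* was at 230 ± 74.2, 145 ± 39.2 and 102 ± 47.5 in the same order. The transported groups overlapped for both genes.

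*KIF12* was at 122 ± 79.2 in controls, 39.9 ± 15.98 after 30 min and 62.6 ± 43.3 after 180 min, and *JCAD* at 15.4 ± 15.98, 1.69 ± 2.00 and 3.21 ± 3.39. The differences of 180 min minus 30 min were 0.07 (SE 0.25) for *ITGA10*, -0.64 (SE 0.44) for *TUBB3*, 0.49 (SE 0.50) for *KIF12* and 0.46 (SE 0.87) for *JCAD*. In exact permutation tests, Benjamini-Hochberg adjusted over these 4 comparisons, p was 0.767, 0.709, 0.709 and 0.767, so no difference between the journeys was larger than the spread between goats. With 4 goats against 7, this does not show that the journeys had the same effect.

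**Figure D5:**
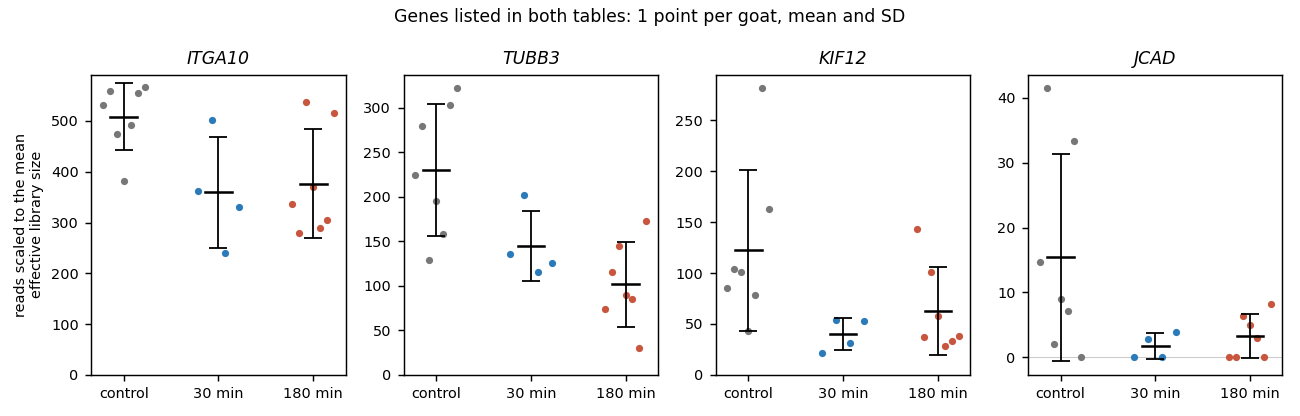
Reads scaled to the mean effective library size (vertical axis) of the 4 genes listed in both tables, in each goat of the control (grey), 30 min (blue) and 180 min (red) groups, with 1 point per goat and the mean and SD drawn in black. The transported groups overlap in all 4 panels, and TUBB3 has its lowest mean, 102, after 180 min.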

How the data were processed

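RNA from blood of 18 goats was extracted from stabilised blood tubes, poly-A selected, depleted of globin mRNA and made into libraries with an NEBNext Ultra kit. Reads were trimmed in fastp and aligned in HISAT2 by the authors; the genome build and the counting tool are not given in the sources used here, and neither is the use of strand or of reads fitting several places, so overlapping antisense genes and close copies cannot be told apart. The deposited counts are reads per gene. The deposited normalized counts, a signal, are those counts divided by a size factor per goat, computed by the authors for each comparison. The deposited FPKM divide the counts by gene length and effective library size. The deposited log2 fold changes, p-values and adjusted p-values are the authors' own comparison and were not used, except to check that the p-value was under 0.05 for all 430 and 1247 listed genes. Coordinates are those of the tables.

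All genes of a table were fitted in limma 3.58.1 (R 4.3.3, moderated two-sided test) after taking log2(normalized count + 1), with the group as the only term, since the labels do not give the day of transport. edgeR needs the genes that did not change and was therefore an alternative, with edgeR 4.0.16 (deposited size factors, or TMM) and DESeq2 1.42.0 fitted to the counts. Single genes were tested by an exact two-sided permutation test over 330 splits at 30 min (smallest possible p 0.00303) and 3432 at 180 min (0.000583). Replicates are separate goats, and any pair of goats of a group shared identical counts in at most 3.56% of listed genes. The fits were checked on simulated data, and the outcome of that check is not reported here.

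The genes, the pathway and marker lists and the tests were chosen with earlier results of these data known. Every gene with a mean of at least 50 in a table was named, and below that the genes of both tables and the 3 highest and 3 lowest differences of each table. Of the 34 symbols, 32 were found in the RefSeq table of goat genes. Some listed genes of the pathway lists are not reported here.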

Additional observations from a re-analysis of the deposited data

Results flagged for a closer look

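In 8 of the 72 groups of goats examined, 1 goat lay far outside the others, judged on log2(normalized count + 1) by the gap to its nearest neighbour as a share of the group's whole range. The limit is one that about 1 in 20 groups of independent, normally distributed values would pass by chance, but the groups here reuse the same goats and many hold zeros. Of these 8 cases, 3 were goat 10. In that goat *FLII* was the lowest of the 180 min group (gap 0.588 of the log2 range, normalized count 2939), *TBCA* the lowest (0.657, normalized count 30.2) and *MYBPC3* the highest (0.654, normalized count 575). Control goat 9 was the lowest control for *DNHD1* (0.766, at 0) and the highest for *KIFAP3* (0.683, normalized count 465). In the 30 min group goat 27 was the highest for *TTLL4* (0.845, normalized count 465), goat 24 the lowest for *MYL3* (0.895, at 0) and goat 22 the highest for *MYO1H* (1.00, the only goat above 0). On the normalized counts themselves, a scale tried after seeing the data, 16 groups passed the same limit, 6 of them through goat 10 as the highest of the 180 min group (*MYO1F* 0.723, *CDH5* 0.811, *MYBPH* 0.642, *CAPG* 0.838, *MYBPC3* 0.898 and *UNC45A* 0.702 of the range).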

How the results depend on the processing

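No paired analysis was possible because the goats of the groups carry different numbers. Of the 14 genes at 30 min the number that fell was 3, and it was 0 after median centring and 5 in edgeR with the deposited size factors, in DESeq2 and by the permutation test, and 1 to 5 when single goats were left out. Of all listed genes 105 fell at 30 min, and 9, 193, 114 and 89 did in these 4 settings. All listed genes passing at 30 min numbered 198, 304 in edgeR with the deposited size factors and 105 to 221 without single goats, the lowest without goat 24 and 109 without goat 21. At 180 min the 8 genes that rose became 3 after median centring, 1 in edgeR with TMM, 2 in DESeq2, 4 without the 3 goats of small library size (an alternative chosen after seeing the data) and 5 to 8 without single goats. The 7 that fell became 12, 13 and 4 in edgeR with TMM, in DESeq2 and without the 3 goats, and 4 to 8 without single goats (4 without goat 16 or control goat 8). In edgeR with the deposited size factors 9 rose and 8 fell. All listed genes passing at 180 min numbered 778 (459 higher and 319 lower) and 480 without the 3 goats (312 and 168), and they split into 311 and 426 after median centring, 245 and 480 in edgeR with TMM and 292 and 500 in DESeq2. The signs of *ITGA10* (0.10), *TTLL4* (0.29) and *TUBB3* (0.011) at 30 min reversed after median centring, which adds 0.69 to every difference, and that of *COL1A1* at 180 min without the 3 goats (0.26). The difference of *ITGA10* between the journeys ranged from -0.11 to 0.25 without single goats. That of *KIF12* was smaller without goat 10, and that of *TUBB3* was smaller in size without goat 16. The cause of the other changes was not tested. In the 180 min genes 239 of 240 values from other settings and 336 of 336 without single goats kept their direction, and at 30 min 137 of 140 and 154 of 154 did. Genes under a mean of 50 rest on few reads, and intervals and floors cover counting error only.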
